A study of Bos taurus with 20 samples.

Results

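Defensins and other antimicrobial proteins of the bovine udder were followed through experimental E. coli mastitis, by their mRNA in tissue of single udder glands. The genes chosen were DEFB4A, TAP and LAP (β-defensins), LTF (lactoferrin), LCN2 (lipocalin 2), PGLYRP1 (peptidoglycan recognition protein 1) and CATHL4 (cathelicidin 4). All probe sets that the annotation of the array assigns to 1 of these symbols alone were taken, which gave 8 of the 24128 probe sets and 6 of the 7 genes, among 9156 genes on the array with a probe set of their own. DEFB4A and LTF had 2 probe sets each and the other 4 genes had 1. No probe set carried the symbol LCN2.

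β-defensins are short cationic peptides that insert into the membranes of bacteria and open them. Epithelial cells release them onto mucosal surfaces, and in cattle neutrophils store several of them in granules. In the mammary gland their genes are switched on when Toll-like receptors sense bacterial products and activate NF-κB. Lactoferrin, a protein of milk and of neutrophil granules, withholds iron from bacteria, PGLYRP1 binds the peptidoglycan of the bacterial cell wall, and CATHL4 encodes the precursor of indolicidin, a peptide of bovine neutrophil granules. In the RefSeq gene table, DEFB4A, TAP and LAP lie on 1 chromosome together with DEFB10, DEFB13 and EBD. Their sequences are alike, so that a probe set may also take up signal from a close relative, which was not tested. This holds above all for the DEFB4A probe set whose name ends in _s_at, a suffix for probes that can match several transcripts. It is called DEFB4A_s_at below and the other DEFB4A_at, and the LTF probe sets are called LTF bright and LTF weak by their signal. The files name no genome build, so positions are not given.

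Mammary tissue of 20 glands from 5 Holstein Friesian cows in mid lactation was measured, with 1 array per gland. Each cow gave 1 gland without challenge (NC), 1 gland challenged with 100 cfu of E. coli and left untreated (CNT), 1 challenged gland that received cefapirin, a cephalosporin, at 300 mg per infusion (CF), and 1 challenged gland that received the same dose together with 20 mg prednisolone, an anti-inflammatory glucocorticoid (CFPD). Cows 4 and 5 were sampled at 24 h post challenge, after infusions at 4 and 12 h, and cows 1, 2 and 3 at 48 h, after further infusions at 24 and 36 h. The NC gland was thus a gland of an infected cow, and in every cow NC was the right front and CNT the left front gland. By the labels the tissue came from the cisternal region, by the methods from mid parenchyma.

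Values are log2 signals, and array medians were 7.13 to 7.31. The 9 measured markers of milk-secreting epithelium exceeded this median on all 20 arrays, with a mean signal of 14.8 to 15.2. Of the 11 measured neutrophil markers, 7 or 8 exceeded it in CNT glands and 2 to 5 elsewhere. Their mean signal was 8.23 to 9.84 in CNT and 6.16 to 6.79 in all other glands, and ITGAM, LTB4R and PROK2 exceeded the median on no array. Of these 11, 5 were called higher in CNT than NC glands at 24 h and 7 at 48 h, with and without the filter on dim probe sets described below, against 1.62% and 2.15% of all probe sets tested with it. With it 7 of the 11 were tested at each time, and CXCR1, TREM1 and NCF1 passed it only with the help of the CNT arrays. These are the glands in which DEFB4A, LAP and LTF were high, and the part of the neutrophil markers in these results was not tested. The 9 measured markers of monocytes and macrophages were also higher in their mean in CNT than NC glands at both times. Not every marker was, with MSR1 at 8.05 in the CNT and 9.01 in the NC gland of cow 2. At 24 h the mean signal of the 9 was 8.68 to 9.44 in CNT, 8.10 to 8.40 in NC and 8.14 to 8.40 in treated glands. At 48 h it was 9.46 to 10.01 in CNT, 8.40 to 9.20 in NC and 8.49 to 9.06 in treated glands. Of the 8 tested, 0 were called higher in CNT than NC glands at 24 h and 2 at 48 h. In whole tissue, a change in the number of cells of a type and in their RNA per cell cannot be told apart. Which treated gland is CF and which CFPD is uncertain in cows 1 and 4. There the labels place CF in the right and CFPD in the left rear gland, and in cows 2, 3 and 5 the other way round, and whether an exchange took place was not settled here. Values below follow the labels as deposited. Some group differences of the members lose or gain a call, turn or move by over 1.5 times when these labels are exchanged. For these the exchanged value is given beside the printed one. The lists of other genes read below were not fitted with exchanged labels, so their CF and CFPD results hold for the deposited labels only.

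A probe set entered the tests of a time with a signal over the array median in 2 or more arrays (24 h) or in 3 or more (48 h), and was called when its adjusted p from limma was under 0.05 and its group means differed at least 2-fold. The 2 probe sets of DEFB4A, the 1 of LAP and the 2 of LTF were tested at both times. TAP and PGLYRP1 exceeded the median on 1 array each and CATHL4 on none, so that these 3 were too dim to be tested. At 24 h DEFB4A_at passed this filter only through its 2 CNT arrays, and DEFB4A_s_at through these and 1 NC array. Without the filter their adjusted p for CNT against NC was 0.0153 in place of 0.0154 and 0.0479 in place of 0.0428.

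**Figure D1:**
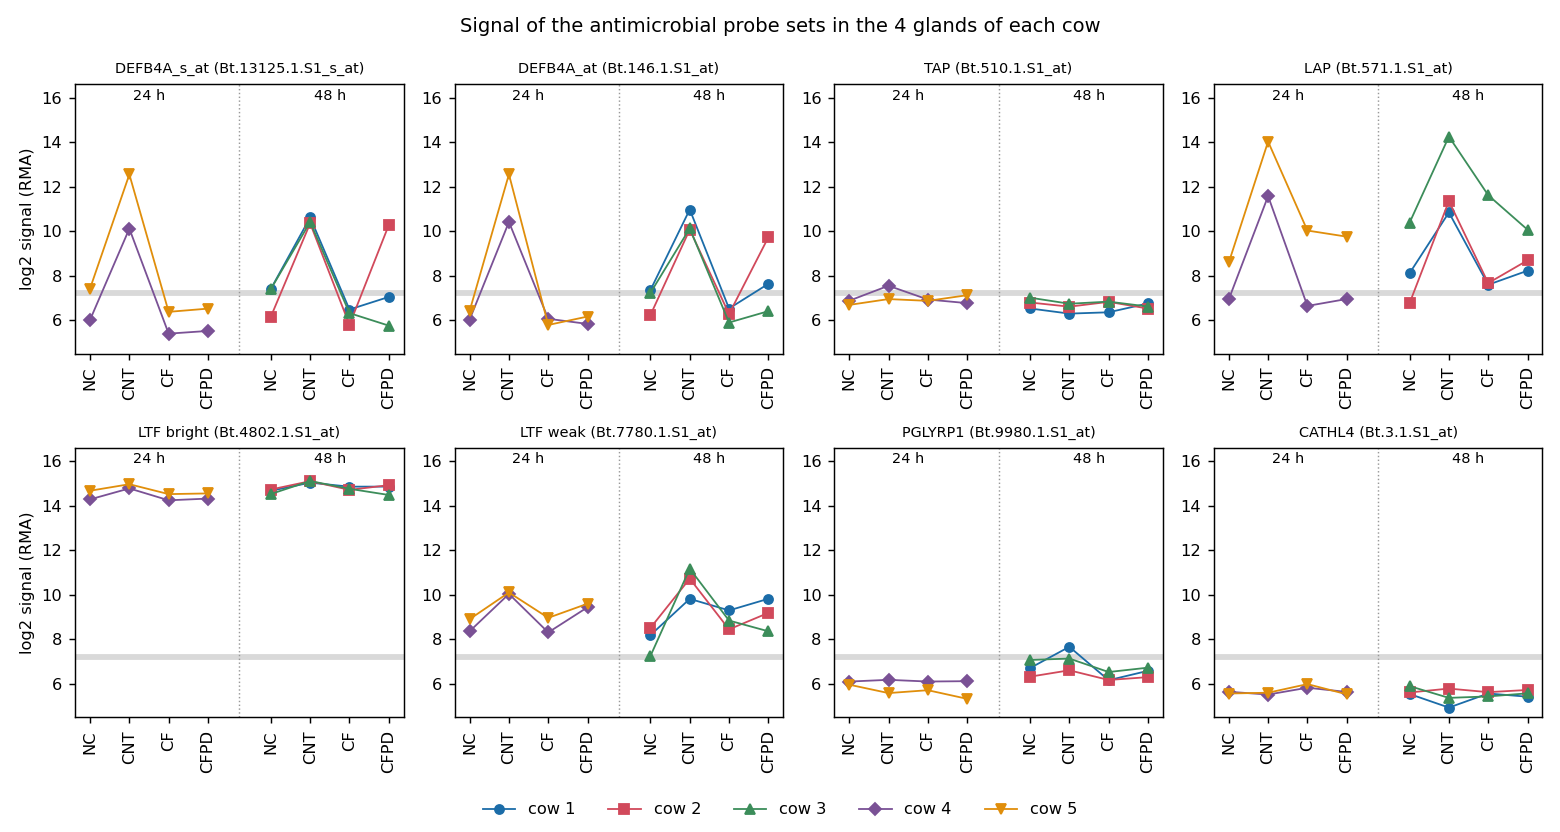
Log2 signal (RMA) of the 8 probe sets in the 4 glands of each cow, at 24 h (cows 4 and 5) and 48 h (cows 1, 2 and 3), with the glands of a cow joined by a line and the range of the array medians, 7.13 to 7.31, as a grey band. DEFB4A, LAP and LTF peak in the CNT gland of every cow, apart from 1 LTF probe set in cow 1, and DEFB4A is also high in the CFPD gland of cow 2.

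DEFB4A was called higher in CNT than in NC glands by both of its probe sets, at 24 h and at 48 h. With DEFB4A_at, the log2 signal at 24 h was 6.03 and 6.42 in the NC glands of cows 4 and 5, and 10.41 and 12.55 in their CNT glands. At 48 h it was 7.35, 6.23 and 7.22 in the NC glands of cows 1, 2 and 3, and 10.97, 10.07 and 10.12 in their CNT glands. No CNT gland came near an NC gland at either time. With 2 or 3 glands per group, the share of all probe sets whose groups part in this way was not counted, here and below. Group means differed by 5.26 on the log2 scale at 24 h (standard error 0.61, 38.3-fold, adjusted p = 0.0154), and at 48 h by 3.45 (standard error 0.65, 10.9-fold, adjusted p = 0.0172).

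The other DEFB4A probe set, DEFB4A_s_at, gave 6.01 and 7.42 in NC and 10.11 and 12.55 in CNT glands of cows 4 and 5. In cows 1, 2 and 3 it gave 7.40, 6.16 and 7.40 in NC and 10.61, 10.35 and 10.41 in CNT glands. Again the groups were apart at both times, with a difference of 4.61 at 24 h (standard error 0.85, adjusted p = 0.0428) and, at 48 h, of 3.47 (standard error 0.85, adjusted p = 0.0462). The probe sets of DEFB4A differed by at most 1.0 on the log2 scale on any of the 20 arrays. Pearson's r between them was 0.978 across the 20 arrays, which share 5 cows and 4 treatments, and 0.910 across the 15 arrays that are not CNT.

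With 2 or 3 glands per group these calls depended on single arrays, whereas the direction held in every cow and every fit. Here and below, leaving out 1 cow of 24 h left 1 gland per group at that time. Those fits held all remaining arrays of both times, so their spread came from the 48 h glands, unlike in the main fit. The call of DEFB4A_at at 24 h was lost on omission of 1 NC gland (adjusted p = 0.104 for that of cow 4 and 0.0993 for that of cow 5) and of all glands of cow 5 (0.293). Its call at 48 h was lost when NC of cow 3 (0.051) or 2 (0.0779), CNT of cow 1 (0.0595) or all glands of 1 cow were left out, namely cow 1 (0.151), 2 (0.071) or 3 (0.0934). For DEFB4A_s_at it ended without the NC gland of cow 4 (0.193) or 5 (0.15) or the CNT gland of cow 5 (0.153) at 24 h, and without any 1 array of the NC and CNT groups at 48 h (0.0751 to 0.14). Leaving out 1 whole cow ended it as well (0.157 without cow 4, 0.632 without cow 5, 0.244 without cow 1, 0.0541 without cow 2 and 0.135 without cow 3). At 48 h the call of this probe set was also lost with median centring (0.0505), with a new quantile normalization (0.062) and with CF and CFPD exchanged in cows 1 and 4 (0.052).

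LAP, a β-defensin first found in the bovine tongue, showed large differences that varied between cows. The log2 signal at 24 h was 6.94 and 8.59 in the NC glands of cows 4 and 5, and 11.57 and 14.02 in their CNT glands. The values at 48 h were 8.11, 6.77 and 10.38 in the NC glands of cows 1, 2 and 3, and 10.84, 11.35 and 14.25 in their CNT glands. The CNT gland exceeded the NC gland of the same cow by 2.73 to 5.43 in all 5 cows. The groups did not overlap at either time, a pattern whose share of all probe sets was not counted. Yet cow 3 had a higher signal in its NC gland than any other cow, and cow 5 a higher one than cow 4. The group means differed by 5.03 at 24 h (standard error 1.42, 32.7-fold) and by 3.73 at 48 h (standard error 1.24, 13.2-fold), and neither passed the test (adjusted p = 0.11 and 0.102). When the model held the cow as a block, the same differences passed (adjusted p = 0.0014 and 0.00203), with standard errors of 0.36 and 0.47. LAP was the tested member whose glands of 1 group spread most, with a residual standard deviation of 1.82 on the log2 scale against 0.89 and 1.19 for DEFB4A.

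TAP, the tracheal antimicrobial peptide, stayed close to the array median or below it in every gland. The log2 signal at 24 h was 6.87 and 6.69 in NC and 7.55 and 6.95 in CNT glands of cows 4 and 5, and at 48 h 6.53, 6.79 and 7.01 in NC and 6.29, 6.61 and 6.74 in CNT glands of cows 1, 2 and 3. All 20 values lay between 6.29 and 7.55, a range of 1.25, against ranges of 7.15 and 6.77 for DEFB4A and of 7.61 for LAP. CNT exceeded NC in both cows at 24 h, by 0.67 and 0.26, and lay below it in all 3 cows at 48 h, with differences of -0.23, -0.19 and -0.27. The groups overlapped at 48 h and did not at 24 h, with 2 arrays per group. How many of all probe sets part in this way was not counted. Too dim for the main test, TAP was not called without the filter either, and the interval of CNT minus NC was -0.07 to 1.0 at 24 h and -0.64 to 0.18 at 48 h.

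Lactoferrin was read by 2 probe sets that differed in what they showed. With LTF weak, the log2 signal at 24 h was 8.36 and 8.91 in the NC and 10.04 and 10.11 in the CNT glands of cows 4 and 5. At the later time it was 8.19, 8.51 and 7.25 in the NC and 9.82, 10.73 and 11.17 in the CNT glands of cows 1, 2 and 3. CNT lay above NC without overlap at both times. The difference was 1.44 at 24 h (standard error 0.27, 2.71-fold, adjusted p = 0.0437) and 2.59 at 48 h (standard error 0.45, 6.01-fold, adjusted p = 0.0121). The call at 24 h ended with median centring (adjusted p = 0.0501) and with all 20 arrays in 1 fit (0.149). It also ended with CF and CFPD as 1 group (0.0717) and with the labels of cows 1 and 4 exchanged (0.114). Leaving out any 1 of the 4 arrays compared, cow 4 or cow 5 left 1 gland in a group, and the call ended there as well. That at 48 h ended without cow 2 (0.134) or cow 3 (0.114).

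With LTF bright, the signal of LTF was among the highest on the array in every gland, between 14.25 and 15.11 where the highest value of any probe set was 15.6. It was highest in the CNT gland in all 5 cows, by small amounts. CNT minus NC was 0.39 at 24 h (standard error 0.20, adjusted p = 0.322) and 0.44 at 48 h (standard error 0.15, adjusted p = 0.102). Pearson's r between the LTF probe sets was 0.686 across the 20 arrays and 0.338 across the 15 that are not CNT.

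PGLYRP1 gave 6.11 and 5.97 in NC and 6.18 and 5.59 in CNT glands of cows 4 and 5, and 6.71, 6.32 and 7.08 in NC and 7.67, 6.61 and 7.14 in CNT glands of cows 1, 2 and 3. The groups overlapped at both times, and the CNT gland of cow 1 was the 1 array on which PGLYRP1 exceeded the median. CATHL4 lay between 4.94 and 5.99 on all 20 arrays. For neither gene did CNT minus NC pass without the filter, with intervals of -0.87 to 0.57 at 24 h and -0.14 to 1.01 at 48 h for PGLYRP1. In CF glands of cows 1, 2 and 3 PGLYRP1 gave 6.17, 6.18 and 6.53, below all their CNT glands, with a difference of -0.85 that did not pass without the filter (adjusted p = 0.129).

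In all, 3 of the 5 tested probe sets had a called rise from NC to CNT at 24 h (both of DEFB4A and LTF weak) and the same 3 at 48 h. Of all probe sets tested, 1.62% were called higher at 24 h (211 of 13004) and 2.15% at 48 h (279 of 13000). Without the filter on dim probe sets the shares were 0.899% and 1.4%. The median difference over all tested probe sets was -0.01 at 24 h and 0.13 at 48 h.

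**Figure D2:**
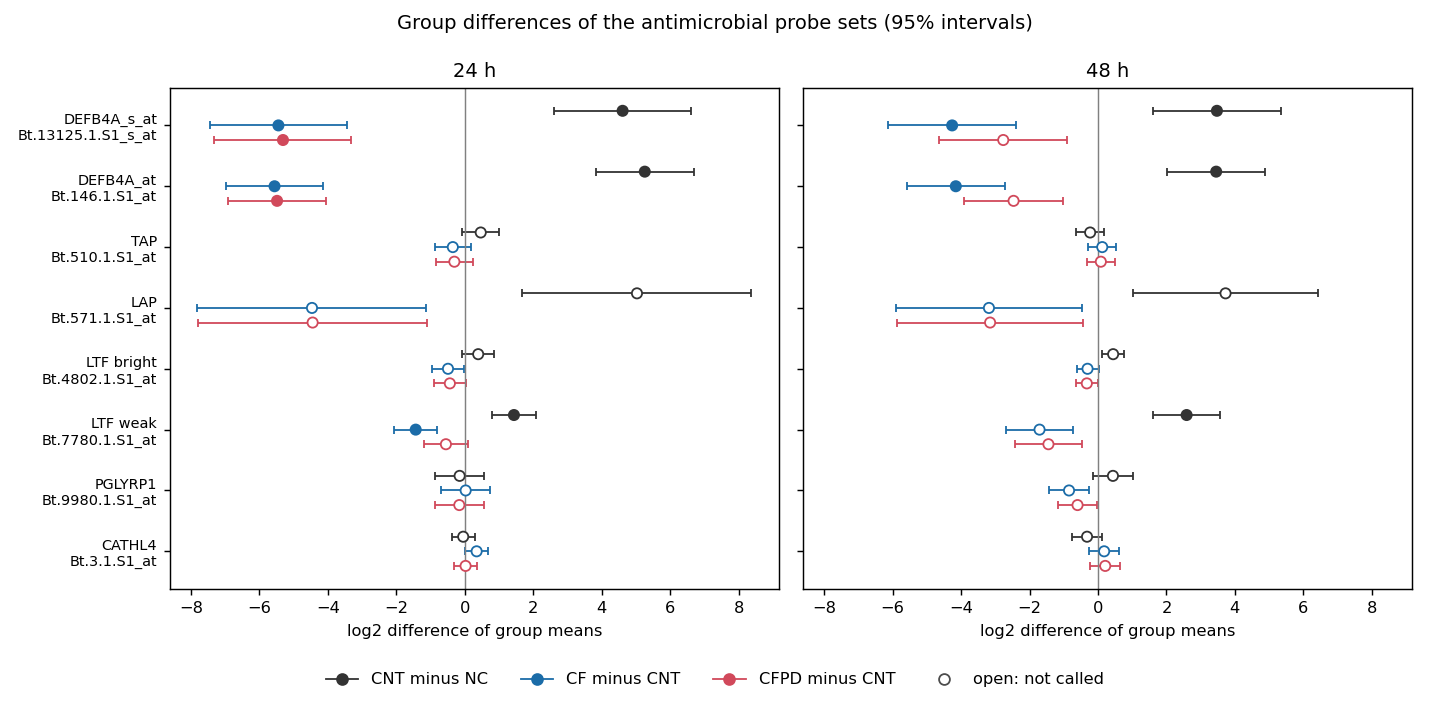
Log2 difference of group means for the 8 probe sets at 24 h and 48 h, with 95% intervals from limma, for CNT minus NC, CF minus CNT and CFPD minus CNT. Filled points were called. The 3 dim genes TAP, PGLYRP1 and CATHL4 were not tested and are drawn open, and the DEFB4A differences reach 5.26 for CNT minus NC and -5.56 for CF minus CNT at 24 h.

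Cefapirin treatment was compared next, CF against CNT glands. DEFB4A_at gave 6.06 and 5.79 in the CF glands of cows 4 and 5, and 6.52, 6.28 and 5.89 in those of cows 1, 2 and 3. All 5 values lay between 5.79 and 6.52, and the lowest CNT gland at 10.07. CF minus CNT was -5.56 at 24 h (standard error 0.61, adjusted p = 0.013). The corresponding value at 48 h was -4.16 (standard error 0.65, adjusted p = 0.00824). By DEFB4A_s_at, the CF glands gave 5.4, 6.37, 6.48, 5.79 and 6.32 in cows 4, 5, 1, 2 and 3, and the signal fell by 5.44 at 24 h (adjusted p = 0.0312) and fell by 4.26 later (adjusted p = 0.0286). For both probe sets the CF gland also lay below the NC gland of the same cow, except for DEFB4A_at in cows 4 and 2. With the labels exchanged, the CF gland of cow 1 would give 7.63 by DEFB4A_at, above its NC gland at 7.35.

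LAP gave 6.64 and 10.03 in the CF glands of cows 4 and 5, and 7.59, 7.67 and 11.61 in those of cows 1, 2 and 3. Within the cows CF minus CNT ran from -4.93 to -2.63. At 48 h the groups overlapped, since the CF gland of cow 3 exceeded the CNT glands of cows 1 and 2. CF minus CNT was -4.46 at 24 h (standard error 1.42, adjusted p = 0.139) and -3.19 at 48 h (standard error 1.24, adjusted p = 0.181), and passed only with the cow as a block (adjusted p = 0.00203 and 0.00365), as a fixed or a random term, or, at 24 h, with CF and CFPD as 1 group (0.0449).

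LTF weak gave 8.31 and 8.97 in the CF glands of cows 4 and 5, close to their NC glands, and fell by 1.43 against CNT at 24 h (standard error 0.27, adjusted p = 0.046). At 48 h it gave 9.30, 8.45 and 8.85 in cows 1, 2 and 3. CF minus CNT was -1.71 there (standard error 0.45, adjusted p = 0.0752), which passed with the cow as a block (0.0426), with all 20 arrays in 1 fit (0.0298) and with CF and CFPD as 1 group (0.0276). The call at 24 h ended without the filter (0.0506), with median centring (0.0514) and with all 20 arrays in 1 fit (0.15). It also ended with the exchange of labels (-0.87, adjusted p = 0.312) and with CF and CFPD as 1 group (-0.99, adjusted p = 0.104). Leaving out any 1 of the 4 arrays, cow 4 or cow 5 left 1 gland in a group, and the call ended there as well. LTF bright gave -0.49 at 24 h and -0.31 at 48 h (adjusted p = 0.222 and 0.26).

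At 24 h 3 of the 5 tested probe sets were called lower in CF than in CNT glands (both of DEFB4A and LTF weak), and at 48 h 2 (both of DEFB4A), or 4 with the cow as a block. Over all tested probe sets 1.59% were called lower at 24 h and 1.5% at 48 h. The calls of DEFB4A depended on single CF and CNT glands here too. For DEFB4A_at they were lost on omission of the CF gland of cow 5 (adjusted p = 0.0868) or of cow 4 (0.0871), or of all glands of cow 5 (0.346), at 24 h, and without the CF gland of cow 2 (0.051) or all glands of cow 1 (0.0986) or cow 3 (0.0974) at 48 h. For DEFB4A_s_at they ended without the CNT (0.101) or CF gland of cow 5 (0.117), the CF gland of cow 4 (0.177), or all glands of cow 4 (0.0724) or cow 5 (0.486), at 24 h. At 48 h they ended without the CNT gland of cow 3 (0.0751), 1 (0.083) or 2 (0.053), the CF gland of cow 3 (0.0783) or 2 (0.144), or all glands of cow 1 (0.152) or cow 3 (0.13).

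Combined treatment with cefapirin and prednisolone gave a like picture at 24 h and a split one at 48 h. DEFB4A_at gave 5.83 and 6.16 in the CFPD glands of cows 4 and 5, and by DEFB4A_s_at 5.52 and 6.52. It fell by 5.48 (standard error 0.61, adjusted p = 0.0184) and fell by 5.31 (standard error 0.85, adjusted p = 0.0394) against CNT. Both calls were lost on omission of the CFPD gland of cow 4 (adjusted p = 0.0878 and 0.167) or of cow 5 (0.114 and 0.14), or of cow 5 as a whole (0.36 and 0.685). The call of DEFB4A_s_at also ended without the CNT gland of cow 5 (difference -4.09) or without all glands of cow 4 (-6.03). These were the 2 of 5 probe sets called lower in CFPD than in CNT glands at 24 h, where 1.04% of all tested probe sets were.

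At 48 h the CFPD glands of cows 1, 2 and 3 gave 7.63, 9.72 and 6.4 by DEFB4A_at and 7.04, 10.27 and 5.76 by DEFB4A_s_at. CFPD minus CNT within cow 2 was -0.35 and -0.08, whereas within cows 1 and 3 it ran from -4.66 to -3.34. CFPD minus CNT was -2.47 (standard error 0.65, adjusted p = 0.0929) and -2.77 (standard error 0.85, adjusted p = 0.134), and neither was called. Without the CFPD gland of cow 2 both were, with -3.37 (adjusted p = 0.00948) and -4.06 (0.00438), and without all glands of cow 2 DEFB4A_s_at was (-4.11, adjusted p = 0.03). With the cow as a block DEFB4A_at passed (0.0445). Over all tested probe sets 1.05% were called lower at 48 h by limma, and of the members 0, although all 5 had an unadjusted p under 0.05. With the block 2 were called (LAP and DEFB4A_at).

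The CFPD gland of cow 2 stood apart in DEFB4A and in some other genes, more than in most probe sets of the response. DEFB4A exceeded the NC gland of this cow by 3.49 (DEFB4A_at) and 4.11 (DEFB4A_s_at) there. The 279 probe sets called higher in CNT than NC at 48 h had a median difference of 0.45 between these glands and of 1.58 between the CNT and NC glands of cow 2. Among the 279, the DEFB4A probe sets ranked 6 and 3. In this gland 8 of the 279 were at least as high as in the lowest CNT gland of 48 h. The DEFB4A probe sets were not among these 8. Some other antimicrobial genes were high there too, SAA3 at 14.09 against 8.78 in NC and CHI3L1 at 12.58 against 7.80. SLC11A1 gave 7.33, against 5.23 in the NC and 7.22 in the CNT gland, while others such as LYZ2 (8.11 against 8.14 in NC) were not raised. LAP, at 8.69, differed from the NC gland of the cow by 1.92 and from its CNT gland by -2.66. The mean signal of the 11 neutrophil markers was 6.79 in this gland, against 6.16 in the NC and 8.27 in the CNT gland of cow 2. That of the 8 markers other than the S100 genes was 6.15, against 5.88 and 7.21. The S100 genes left out were higher in this gland than in the NC gland of the cow, S100A12 at 8.70 against 5.92, S100A9 at 8.91 against 7.78 and S100A8 at 7.85 against 7.01. S100A12 and S100A9 exceeded the other 14 glands that were not CNT. Their part in the DEFB4A signal of this gland was not tested. The mean of the 9 markers of monocytes and macrophages was 8.90 there, between the NC (8.40) and CNT (9.46) glands of the cow. This gland was singled out after its values were seen.

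**Figure D3:**
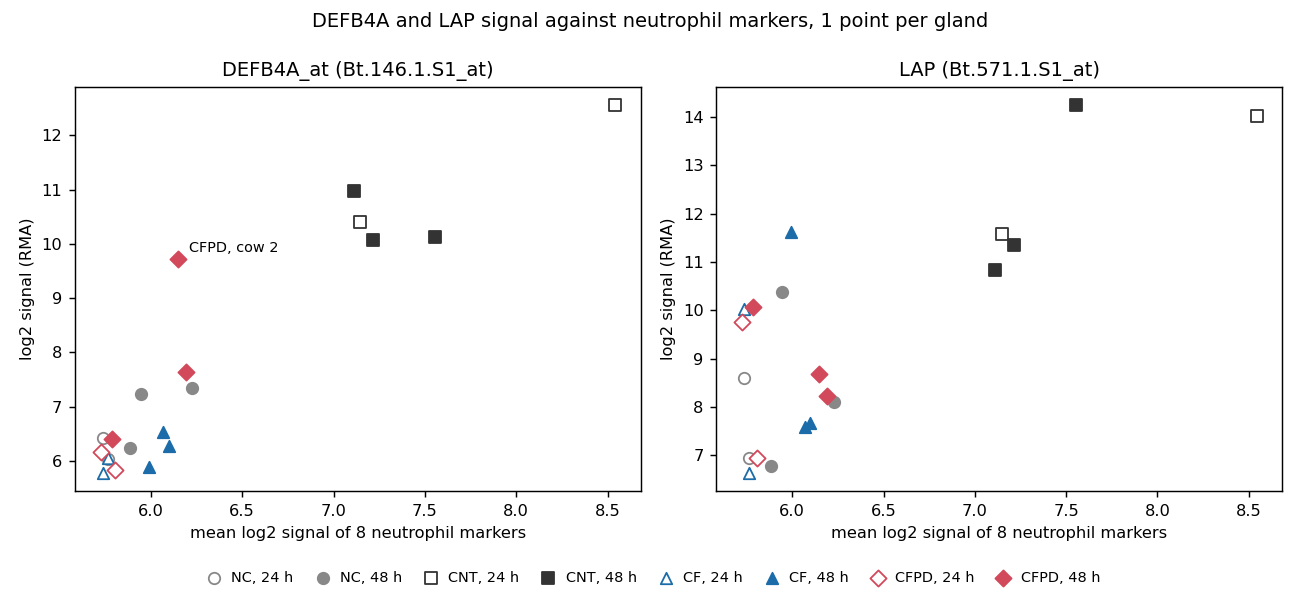
Log2 signal (RMA) of DEFB4A_at and of LAP against the mean log2 signal of 8 neutrophil markers, with 1 point per gland, open at 24 h and filled at 48 h. The 5 CNT glands lie apart at the right, and in the DEFB4A panel also at the top. In the LAP panel the CF gland of cow 3, at 11.61, lies above the CNT glands of cows 1 and 2. The CFPD gland of cow 2 has a DEFB4A signal of 9.72 at a marker mean of 6.15.

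For LAP the CFPD glands gave 6.95 and 9.75 in cows 4 and 5 and 8.22, 8.69 and 10.06 in cows 1, 2 and 3, and CFPD minus CNT within the cows ran from -4.62 to -2.62. CFPD minus CNT over the groups was -4.44 and -3.15 at the 2 times (adjusted p = 0.166 and 0.214), and passed with the cow as a block (0.00251 and 0.00488). LTF weak gave 9.44 and 9.60 in cows 4 and 5, above both their NC and their CF glands, and 9.82, 9.19 and 8.36 in cows 1, 2 and 3. It was -0.55 against CNT at 24 h (standard error 0.27, adjusted p = 0.332), or -1.12 with the labels exchanged (0.196), and -1.45 at 48 h (standard error 0.45, adjusted p = 0.137). In cow 1 the CFPD and CNT glands both gave 9.82, so that the groups overlapped.

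Whether prednisolone added to cefapirin was addressed by CFPD against CF glands. None of the members was called, nor was any probe set of the array at 24 h, at 48 h or over both (0% by limma, with 67, 21 and 41 probe sets at an unadjusted p under 0.05), and all these adjusted p-values of members were 1. For DEFB4A the difference at 24 h was 0.07 (interval -1.36 to 1.5) by DEFB4A_at and 0.13 (interval -1.87 to 2.13) by DEFB4A_s_at. At 48 h it was 1.69 (interval 0.25 to 3.12) and 1.49 (interval -0.37 to 3.36), with the gland of cow 2 contributing 3.45 and 4.48. With the labels exchanged, DEFB4A_at gave 0.30 at 24 h and 0.95 at 48 h, and DEFB4A_s_at gave 0.01 at 24 h. LAP differed by 0.02 at 24 h (interval -3.33 to 3.36) and by 0.03 at 48 h (interval -2.68 to 2.74), which became -0.29 and -0.39 with the exchange. LTF weak was higher in the CFPD gland by 1.13 and 0.63 in cows 4 and 5, a difference of 0.88 (interval 0.25 to 1.51). With the labels of cow 4 exchanged this became -0.25, so its sign rests on labels in doubt, as do those of LAP. Intervals this wide leave differences of 2-fold and more undecided for DEFB4A and LAP.

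Treated glands were also set against NC glands, and none of the members was called (0% of all probe sets at either time by limma). At an unadjusted p under 0.05 there were 106 and 82 probe sets for CF and 258 and 43 for CFPD at 24 h and 48 h. For DEFB4A_at, CF minus NC was -0.30 at 24 h (interval -1.73 to 1.13) and -0.70 at 48 h (interval -2.14 to 0.73). CFPD minus NC was -0.22 at 24 h (interval -1.65 to 1.21) and 0.98 at 48 h (interval -0.45 to 2.42). The exchange moved CF minus NC at 48 h to -0.33 and CFPD minus NC to -0.11 at 24 h and 0.62 at 48 h. By the labels as deposited, LTF weak was higher in the CFPD than in the NC gland in all 5 cows, by 0.67 to 1.63, with an adjusted p of 1 at both times. With the exchange the difference in cow 4 was -0.05, and the mean difference at 24 h was 0.32 in place of 0.89. For LAP the difference from NC lay between 0.54 and 0.59 for CF and CFPD at both times, with a standard error of at least 1.24, and between 0.36 and 0.75 with the exchange.

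With all 20 arrays in 1 fit, the mean difference over the 2 times gave more calls. LAP joined DEFB4A and LTF weak among the members called higher in CNT than NC glands, 4 of 5, with a difference of 4.38 (standard error 1.04, adjusted p = 0.0127). DEFB4A rose by 4.36 (adjusted p = 9.57e-05) and 4.04 (adjusted p = 0.00143), and LTF weak by 2.01 (adjusted p = 0.000986). The same 4 were called lower in CF than CNT glands, with -4.86, -4.85, -3.83 and -1.57 in the order DEFB4A_at, DEFB4A_s_at, LAP and LTF weak. In CFPD against CNT glands 3 were called lower, with -3.98, -4.04 and -3.80 for the DEFB4A probe sets and LAP, while LTF weak gave -1.0 (adjusted p = 0.0632), or -1.37 with the labels exchanged (0.0236) and -1.36 without cow 1 (0.0154). LTF bright differed by 0.42 between CNT and NC (adjusted p = 0.0309), below the 2-fold limit. Of all 13486 probe sets tested this way, 3.4% were called higher in CNT than NC, 3.23% lower in CF than CNT and 2.45% lower in CFPD than CNT glands. LAP lost its call against NC without cow 2 (0.0509), 4 (0.0606) or 5 (0.11), and against CF and CFPD glands without any 1 cow except cow 3 (0.0624 to 0.187). LTF weak lost its CF call without cow 4 (0.119) or 5 (0.0792), and DEFB4A_s_at its CFPD call without cow 5 (0.0756).

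Between the times, the value of CNT minus NC at 48 h less that at 24 h was -1.81 for DEFB4A_at (adjusted p = 0.719), -1.14 for DEFB4A_s_at, -1.31 for LAP and 1.15 for LTF weak (adjusted p = 0.715). None passed the test of the difference, nor did any probe set of the array (0% by limma, with 1052 of 13486 at an unadjusted p under 0.05). Different cows were sampled at the 2 times, so time and cow cannot be told apart.

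The genes whose signal was most like that of a member across the 20 arrays were described by Pearson's r. For DEFB4A_s_at these were MMP19 (0.97), a matrix metalloproteinase, CD68 (0.96), a lysosomal protein of macrophages, and CTSH (0.95), a lysosomal cysteine protease. For DEFB4A_at they were CD68 (0.96), MMP19 (0.95) and EBD (0.95), the enteric β-defensin. In the CFPD gland of cow 2, MMP19 had a signal of 8.66, against 8.64 in the CNT and 5.89 in the NC gland of this cow. CD68 had 9.45, against 10.20 and 6.95, and EBD 7.65, against 7.45 and 6.18. For these 3 genes that gland exceeded the other 14 glands that were not CNT, but they were picked for likeness over arrays that include it. For LAP the genes were GSR (0.95), CTSZ (0.92) and VDAC3 (0.91). For LTF they were GPX1, ACADVL and DELE1 (0.95 to 0.91) for LTF bright and AP4M1, WARS2 and NPDC1 (0.90 to 0.89) for LTF weak. With the mean of each cow removed, CD68 stayed among the 3 closest for both DEFB4A probe sets (0.97 and 0.98), while for LAP other genes came first, HSPA5 (0.97), UGDH (0.97) and IL1RN (0.97). Without removal of the cow means, the highest values of the dim members were 0.801 for TAP, 0.905 for PGLYRP1 and 0.843 for CATHL4. The 20 arrays share 5 cows and 4 treatments, so these values are a description.

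Among members, DEFB4A and LAP correlated over the 20 arrays with r of 0.70 and 0.74, and with r of 0.04 and 0.22 over the 15 arrays that are not CNT. Between TAP and DEFB4A r was -0.01 and -0.02 over the 20 arrays.

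Other antimicrobial genes on the array were read from a list of 59, of which 30 had a probe set and 16 were tested at each time. Against NC, 7 were called higher and 1 lower in CNT glands at 24 h, and 4 higher and 0 lower at 48 h. Of all tested probe sets 1.62% and 2.15% were called higher, and 0.769% and 0.515% lower. Of these genes DEFB10, EBD and SLC11A1 at 24 h and EBD, SLC11A1 and BPIFB1 at 48 h passed the filter only with the help of the CNT arrays. They account for 3 of the 7 calls at 24 h and 1 of the 4 at 48 h. Without the filter 7 and 5 of the 30 were called higher and 0 lower. The median difference was 2.40 and 1.58 over those tested and 0.34 and -0.04 over all 30, against -0.01 and 0.13 over all tested probe sets. At 24 h the largest were S100A12 (4.96), S100A8 (4.73), DEFB10 (4.65) and SAA3 (4.56). S100A8 and S100A12 bind calcium and are abundant in neutrophils, and SAA3 is the serum amyloid A of the mammary gland. At 48 h the 4 called genes were S100A12 (4.5), S100A8 (4.24), S100A9 (2.61) and SLC11A1 (2.40), a metal transporter of phagocytes. The 3 S100 genes are also on the list of neutrophil markers. MUC15, a membrane mucin of the milk fat globule, was the 1 gene called lower at 24 h (-1.16, adjusted p = 0.0459, or 0.0528 without the filter).

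**Figure D4:**
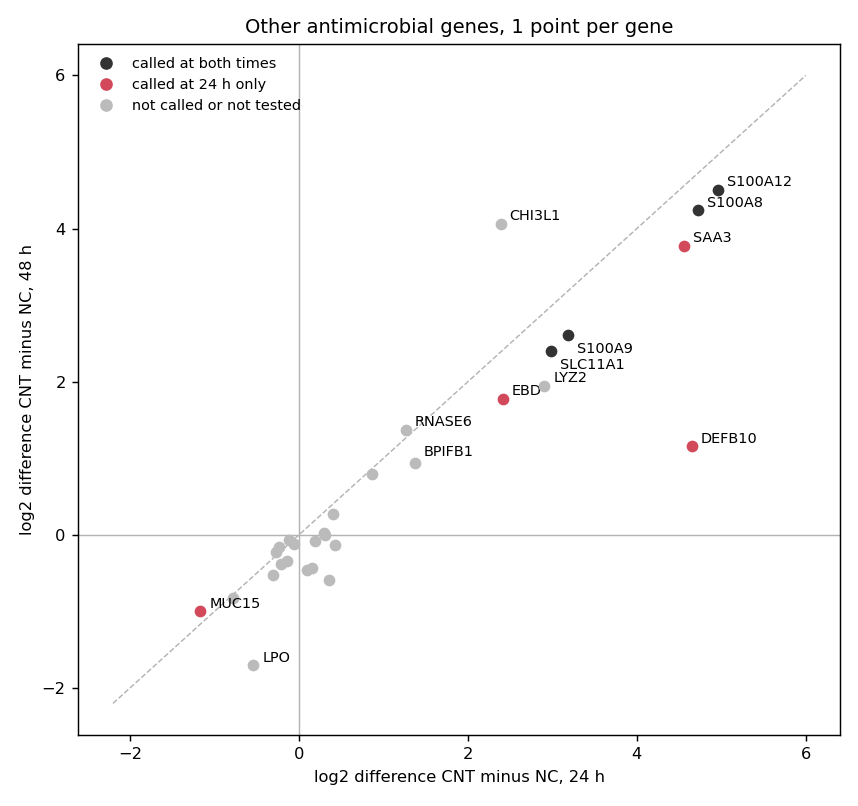
Log2 difference CNT minus NC at 24 h (horizontal) and at 48 h (vertical) for the 30 other antimicrobial genes with a probe set, 1 point per gene, with the line of equal differences dashed. S100A12 and S100A8 are near the top at both times, and DEFB10 lies far below the line, with 4.65 at 24 h.

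Of the other β-defensins, DEFB10 gave 5.24 and 5.28 in the NC and 8.58 and 11.23 in the CNT glands of cows 4 and 5. The later values were 5.64, 5.27 and 5.67 in the NC and 5.88, 6.96 and 7.21 in the CNT glands of cows 1, 2 and 3, too low to be tested. The change in CNT minus NC from 24 h to 48 h was -3.49 in the fit of all arrays (standard error 0.72, adjusted p = 0.179), which did not pass. EBD gave 5.89 and 6.42 in NC and 7.83 and 9.31 in CNT glands at 24 h, a difference of 2.42 (standard error 0.45, adjusted p = 0.0428). It passed the filter at 24 h only through its 2 CNT arrays, as did DEFB10, and without the filter the adjusted p was 0.048 for EBD and 0.032 for DEFB10. At 48 h it gave 6.28, 6.18 and 6.4 in NC and 9.33, 7.45 and 7.41 in CNT glands, 1.78 (standard error 0.49, adjusted p = 0.062). DEFB13 lay between 4.05 and 4.74 on all arrays. The cathelicidins CATHL1, CATHL2, CATHL3, CATHL5, CATHL6 and CAMP were too dim to be tested, as was CATHL4.

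Under treatment, 9 of the 16 tested genes of this list were called lower and 1 higher in CF than in CNT glands at 24 h, and 6 lower at 48 h, against 1.59% and 1.5% of all tested probe sets called lower. In CFPD glands 4 were called lower and 1 higher at 24 h, and 4 lower at 48 h, against 1.04% and 1.05%. Of the genes that needed the CNT arrays to pass the filter, 3 and 2 are among those lower in CF and 1 and 0 among those lower in CFPD glands. These counts of the list were the same without the filter, and were not made with the labels of cows 1 and 4 exchanged. Of all tested probe sets 0.546% and 0.138% were called higher in CF and 0.361% and 0.162% in CFPD glands. S100A8 fell by 4.53 and fell by 3.99 in CF glands at the 2 times, and fell by 4.04 and fell by 3.97 in CFPD glands. LYZ2, a lysozyme that cleaves peptidoglycan, fell by 3.84 and fell by 2.53 in CF glands, and fell by 2.62 in CFPD glands at 48 h.

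Genes that sense bacteria and signal to β-defensin genes were read from a list of 36. Of these, 26 had a probe set, and 20 were tested at 24 h and 18 at 48 h. In CNT against NC glands 1 was called higher at 24 h and 2 at 48 h, against 1.62% and 2.15% of all tested probe sets. LBP was the gene called at 24 h, with 1.65 (standard error 0.14, adjusted p = 0.00671), and it differed by 4.23 at 48 h (standard error 0.66, adjusted p = 0.00776). LBP carries lipopolysaccharide to CD14 and TLR4. STAT3, a transcription factor downstream of cytokine receptors, was also called at 48 h, with 1.25 (standard error 0.26, adjusted p = 0.0241). TLR4, the receptor of lipopolysaccharide, gave 0.55 and 0.66 and TLR2, a receptor of bacterial lipoproteins, 1.59 and 1.35, and neither passed at either time. CD14 gave 1.63 at 24 h (adjusted p = 0.0879) and 0.10 at 48 h. The median difference of the tested genes was 0.58 at 24 h and 0.38 at 48 h.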

How the data were processed

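The authors deposited RMA values on the log2 scale, made with the affy package from 20 Affymetrix bovine arrays, 1 per gland. The sources used here give no version. Groups, cows and times came from the sample labels, and no new normalization was applied outside the alternatives. Genes were named by the annotation of the array, in which 13318 probe sets have 1 symbol and 86 have several, while 10724 are not listed.

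The 4 groups of a time were fitted with limma 3.58.1 in R 4.3.3 without a cow term, as the methods name none, on 13004 probe sets at 24 h and 13000 at 48 h that passed the filter, 112 controls left out. Comparisons over both times used all 20 arrays and 13486 probe sets. P-values were adjusted by Benjamini and Hochberg over all probe sets tested, and a call needed 0.05 and a log2 difference of 1. Intervals are 95%. P-values within a time measure the spread between glands of 2 or 3 cows, pooled over the 4 groups. Those over both times use the glands of all 5 cows, pooled over the groups of each time. Residual degrees of freedom were 4, 8 and 12, and the number of arrays limits precision. The fit of CNT minus NC within a time was tried on simulated arrays with independent noise and no cow effect. That trial does not cover the likeness of glands of the same cow.

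The 4 glands of a cow come from the same animal. Correlations of their deviations from the group means were 0.33 to 0.71 over 12 pairs at 24 h and 0.06 to 0.84 over 18 pairs at 48 h, and the cow was a block in some alternatives. The others were a random block, other filters and normalizations, a trended prior, no fold threshold, labels exchanged, CF and CFPD as 1 group and leaving out arrays and cows. With a cow of 24 h left out, the comparisons at 24 h were fitted on all remaining arrays of both times.

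Named are all probe sets of the member genes, the 3 genes most like each (among probe sets passing the filter), the called genes of each list with the largest CNT response, up to 4 per time, and single genes chosen after their values were seen (TLR2, TLR4, CD14, LYZ2, EBD, DEFB13 and MUC15 among them). A gene of a list is read by its probe set with the highest mean. Members and lists were chosen with earlier results of these data known.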

Additional observations from a re-analysis of the deposited data

Results flagged for a closer look

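TAP differed in direction between the times. CNT minus NC was positive in both cows at 24 h (mean 0.47) and negative in all 3 cows at 48 h (mean -0.23), so that the response at 48 h minus that at 24 h was -0.70. CF minus CNT was negative in both cows at 24 h (mean -0.35) and positive in all 3 cows at 48 h (mean 0.12), which gives 0.47. TAP was too dim for the main test. For CNT minus NC the difference between the times was tested without the filter and did not pass (adjusted p = 0.695), and for CF minus CNT it was not tested. Both comparisons share the CNT glands. They were the 2 of 48 combinations of a probe set and a comparison in which every cow of one time moved against every cow of the other, and different cows were sampled at the 2 times. The smallest of these differences in a single cow was 0.06 in size.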

How the results depend on the processing

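The signs of CNT minus NC, CF minus CNT and CFPD minus CNT held for all 5 tested probe sets under every alternative. Counts of called members moved as follows. With the cow as a block (replicate block, fixed or random), CF minus CNT at 48 h had 4 calls in place of 2 and CFPD minus CNT at 48 h 2 in place of 0. The block added 8 single calls, given with the results, and lost none. The last count was 1 with the block and exchanged labels, a setting added with the data in view, and 3 with CF and CFPD as 1 group. Leaving out 1 array or 1 cow gave 0 to 2 calls for CNT minus NC, CF minus CNT and CFPD minus CNT at 24 h and at 48 h, and over both times 2 to 4 for CF minus CNT and 1 to 3 for CFPD minus CNT. Signs turned in differences that passed no test. LTF weak CFPD minus CF became -0.25 at 24 h, -0.088 at 48 h and -0.17 over both with labels exchanged, with or without the block, and ran from -0.089 to 0.64 at 48 h when arrays or cows were left out. DEFB4A CFPD minus CF at 24 h then ran from -0.37 to 0.63 (DEFB4A_s_at) and from -0.23 to 0.38 (DEFB4A_at). LTF bright CNT minus NC at 48 h minus 24 h was -0.0052 with median centring and ran from -0.052 to 0.15. The cause was not tested. With 2 or 3 arrays a group, the number of arrays limits every call.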
